A study of Mus musculus with 4 samples.

Results

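The AP-1 genes of the mouse are the Fos family (Fos, Fosb, Fosl1 and Fosl2) and the Jun family (Jun, Junb and Jund), and these 7 symbols, chosen by name, were followed among the 22609 gene symbols counted in the hippocampus after global cerebral ischemia (GCI). RNA-Seq was available for 4 libraries, with 2 per genotype (FLOX+GCI and FBN-ARO-KO+GCI). All mice were female, ovariectomized 1 week before surgery and 3 to 5 months old, and all had both common carotid arteries occluded for 20 min followed by reperfusion for 24 h. In FBN-ARO-KO mice, Cyp19a1, which encodes the estrogen-producing enzyme aromatase, is deleted where Cre is driven by the CaMKIIα promoter in forebrain excitatory neurons, whereas FLOX mice, the controls, keep the gene. The other cells of the hippocampus keep Cyp19a1 in both genotypes, every library comes from whole hippocampal tissue, and both groups had GCI, so the libraries compare genotypes within injured tissue. The comparison asks how the loss of aromatase in forebrain neurons goes with transcript levels 24 h after reperfusion.

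AP-1 is a dimer of basic leucine zipper (bZIP) proteins that binds short DNA elements in promoters and enhancers. Jun proteins pair with themselves or with Fos proteins, whereas Fos proteins need a Jun partner, so the mix of subunits sets which dimers can form. Fos, Fosb and Junb are immediate early genes that neurons and glia switch on for a short time after synaptic activity, calcium entry or injury, Jun is a target of the JNK kinases and is known for its role in neuronal stress and regeneration, and Jund is expressed in most resting cells.

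Promoters are shown for Fos and Junb, whose log2 fold changes were the most negative of the tested members, for Fosb, an immediate early gene that lay on the other side, and for Jun, which is known to bind its own promoter. Each sequence runs 5′ to 3′ from 250 bases before to 50 bases after the RefSeq start in GRCm38.p6. Capitals mark the motifs found, which are the GC box (GGGCGG, or CCGCCC on the other strand), the TATA box (TATAAA) and the variant AP-1 element of Jun (TGACATCA). The Fos window is chr12:85473640-85473939 on the plus strand, and the Junb, Fosb and Jun windows are chr8:84978699-84978998, chr7:19309996-19310295 and chr4:95052173-95052472 on the minus strand.
Fos: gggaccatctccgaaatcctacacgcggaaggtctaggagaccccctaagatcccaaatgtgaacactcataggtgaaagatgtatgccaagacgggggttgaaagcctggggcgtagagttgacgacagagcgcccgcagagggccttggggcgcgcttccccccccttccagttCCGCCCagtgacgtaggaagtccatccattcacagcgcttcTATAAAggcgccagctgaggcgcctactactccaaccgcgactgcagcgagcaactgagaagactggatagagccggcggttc
Junb: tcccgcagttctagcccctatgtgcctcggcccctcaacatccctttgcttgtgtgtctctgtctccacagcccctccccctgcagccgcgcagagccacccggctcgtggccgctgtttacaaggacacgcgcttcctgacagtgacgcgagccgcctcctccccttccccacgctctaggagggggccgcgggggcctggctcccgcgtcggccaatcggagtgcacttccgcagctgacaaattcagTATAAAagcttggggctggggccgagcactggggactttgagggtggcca
Fosb: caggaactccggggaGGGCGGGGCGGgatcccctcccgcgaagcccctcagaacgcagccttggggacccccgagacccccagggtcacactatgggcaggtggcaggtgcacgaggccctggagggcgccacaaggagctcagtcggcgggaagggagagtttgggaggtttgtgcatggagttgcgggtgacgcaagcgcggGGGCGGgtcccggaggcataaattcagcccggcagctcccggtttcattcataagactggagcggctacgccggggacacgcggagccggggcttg
Jun: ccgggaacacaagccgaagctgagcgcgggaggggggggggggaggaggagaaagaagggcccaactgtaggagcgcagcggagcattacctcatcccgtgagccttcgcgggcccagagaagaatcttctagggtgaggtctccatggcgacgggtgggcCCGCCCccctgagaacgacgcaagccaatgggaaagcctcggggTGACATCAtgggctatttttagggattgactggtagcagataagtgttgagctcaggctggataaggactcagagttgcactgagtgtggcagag
Fos and Junb each held TATAAA, at base -33 from the start in Fos and at base 1 in Junb, and 13.62% of the 32851 RefSeq windows of 300 bases held it on either strand. Fosb held 3 GC boxes, of which the first pair overlaps by 1 letter, Fos and Jun held 1 each, Junb held none, and 35.66% of all windows held at least 1. The Jun window held TGACATCA at base -45, a sequence found in 3.62% of all windows. Among the 6 members with a window (Fosl1 has none), 4 held a GC box, 2 a TATA box and 1 the Jun variant. None of the 6 held the cAMP response element TGACGTCA (1.79% of all windows), the AP-1 element TGACTCA (5.2%), the serum response element (1.63%) or the full palindromic estrogen response element (0.07%). Both strands were searched, and these matches describe letters in the windows and not bound sites. Only the full motifs were searched, so partial or variant forms, such as tgacgta in the Fos window, were not counted. Elements more than 250 bases before the start lie outside the windows, so none of these genes can be said to lack an element.

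Counts on genes totaled 24333396 and 24774433 in the FLOX+GCI libraries and 30114003 and 33076795 in the FBN-ARO-KO+GCI libraries. A count of 3, taken as the smallest that can be shown, came to 0.0907 to 0.123 CPM, a gene's count relative to the library total, and this limit covers counting error alone. Cyp19a1 had 1 and 4 counts in FLOX+GCI, against 2 in each FBN-ARO-KO+GCI library, too few to check the genotype labels. Values below are CPM scaled by the trimmed mean of M-values (TMM), given for replicates 1 and 2 of each genotype, with the mean ± SD (n = 2). Differences are log2 fold changes of FBN-ARO-KO+GCI against FLOX+GCI from edgeR's quasi-likelihood test, with their standard error (SE) and with p-values adjusted over all 14527 genes tested. The labels do not say whether the libraries of a genotype come from separate mice, so these p-values measure only the spread between the libraries at hand. In whole tissue, fewer cells of a type and less RNA per cell cannot be told apart.

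Among the Fos family, Fos was lower in both FBN-ARO-KO+GCI libraries, whereas Fosb and Fosl2 were slightly higher in both, and none of these differences passed an adjusted p of 0.05. Fos (chromosome 12, 86814840 to 86818223 in mm9, plus strand), the subunit that gave the family its name, stood at 28.6 and 21.5 CPM in FLOX+GCI and at 16.9 and 13.7 CPM in FBN-ARO-KO+GCI. Its lowest FLOX+GCI library thus lay above its highest FBN-ARO-KO+GCI library. The means were 25.02 ± 5.03 and 15.3 ± 2.27 CPM, a log2 fold change of -0.71 with SE 0.17 (95% confidence interval -1.11 to -0.31, unadjusted p = 0.00382, adjusted p = 0.238). The FLOX+GCI libraries themselves differed 1.33-fold in Fos (95% counting interval 1.19 to 1.49), and the FBN-ARO-KO+GCI libraries 1.23-fold (1.08 to 1.41), with replicate 1 higher in both genotypes. Leaving out FLOX+GCI replicate 2 gave a log2 fold change of -0.90 for Fos with an adjusted p of 0.0140, and leaving out FLOX+GCI replicate 1 gave -0.49 with an adjusted p of 0.180.

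Fosb (chromosome 7, 19888070 to 19895394, minus strand), the source of the long-lived splice form ΔFosB, stood at 9.66 and 8.56 CPM in FLOX+GCI and at 11.0 and 9.97 CPM in FBN-ARO-KO+GCI. The groups did not overlap but lay close together. The log2 fold change was 0.20 with SE 0.15, and its interval of -0.14 to 0.54 included 0 (adjusted p = 0.488). It was 0.11 without FLOX+GCI replicate 2 and 0.13 without FBN-ARO-KO+GCI replicate 1. The counts do not separate the splice forms of Fosb.

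Fosl2 (chromosome 5, 32438845 to 32460204, plus strand), which encodes the Fos-related antigen Fra-2, stood at 69.0 and 82.9 CPM in FLOX+GCI and at 84.5 and 88.5 CPM in FBN-ARO-KO+GCI. FLOX+GCI replicate 1 was the low library, and the other 3 lay close together. The log2 fold change was 0.19 with SE 0.10 (-0.05 to 0.42, adjusted p = 0.382). It was 0.06 without FLOX+GCI replicate 1 and 0.32 without FLOX+GCI replicate 2.

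Fosl1 (chromosome 19, 5447703 to 5455945, plus strand), which encodes Fra-1, had 3 and 41 counts in FLOX+GCI, against 1 and 3 counts in FBN-ARO-KO+GCI, and fell below the filter on low counts. Only FLOX+GCI replicate 2 was clearly above the smallest count that can be shown, at 1.66 CPM. Over all 4 libraries the level in FLOX+GCI was 13.8 times that in FBN-ARO-KO+GCI (95% counting interval 5.03 to 52.9), and without FLOX+GCI replicate 2 the ratio was 1.87 (0.274 to 11.0), which includes 1. Part of Fosl1 overlaps Ccdc85b on the opposite strand, and without a known strand setting their reads cannot be told apart.

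Among the Jun family, all 3 genes were lower in both FBN-ARO-KO+GCI libraries, Junb most and Jun least, again with no adjusted p under 0.05. Junb (chromosome 8, 87500811 to 87502617, minus strand), an immediate early gene known to restrain Jun, stood at 57.6 and 44.6 CPM in FLOX+GCI and at 31.8 and 28.5 CPM in FBN-ARO-KO+GCI. The gap between the groups was about as wide as the gap between the FLOX+GCI libraries. The means were 51.1 ± 9.19 and 30.2 ± 2.35 CPM, a log2 fold change of -0.76 with SE 0.14 (-1.08 to -0.44, unadjusted p = 0.000692, adjusted p = 0.238). The log2 fold change was -0.93 with an adjusted p of 0.00128 without FLOX+GCI replicate 2, and -0.56 with an adjusted p of 0.0503 without FLOX+GCI replicate 1.

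Jun (chromosome 4, 94715725 to 94718913, minus strand) stood at 110.0 and 107.9 CPM in FLOX+GCI and at 94.2 and 90.6 CPM in FBN-ARO-KO+GCI. Its FLOX+GCI replicates were the closest of the family, and the small difference exceeded the spread within either group. The log2 fold change was -0.24 with SE 0.07 (-0.41 to -0.07, unadjusted p = 0.0119, adjusted p = 0.245). Jun overlaps the noncoding gene BC042782 on the opposite strand.

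Jund (chromosome 8, 73221638 to 73224515, plus strand), the member found in most resting cells, stood at 59.4 and 42.6 CPM in FLOX+GCI and at 35.9 and 37.1 CPM in FBN-ARO-KO+GCI. FLOX+GCI replicate 1 stood apart, 1.396-fold above replicate 2 (1.29 to 1.51), and replicate 2 lay just above the FBN-ARO-KO+GCI libraries. The log2 fold change was -0.48 with SE 0.15 (-0.84 to -0.13, unadjusted p = 0.0143, adjusted p = 0.248). It was -0.22 (adjusted p = 0.409) without FLOX+GCI replicate 1 and -0.71 (adjusted p = 0.00904) without FLOX+GCI replicate 2. Jund overlaps Gm11175 on the opposite strand. In the annotation, Jun, Junb and Jund are each a single exon, whereas the 4 Fos family genes hold introns.

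**Figure D1:**
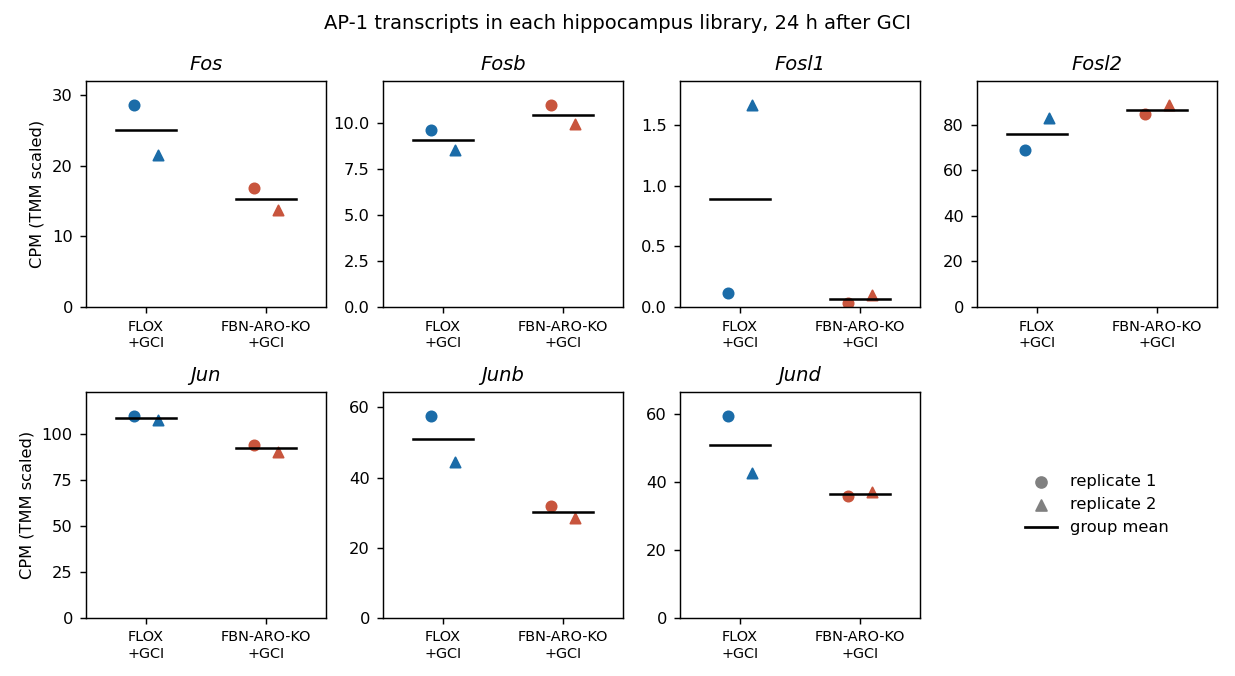
TMM-scaled CPM (y axis, each panel from 0) of the 7 AP-1 genes in the 4 libraries, by genotype, with circles for replicate 1, triangles for replicate 2 and a line for the group mean. Fos, Jun, Junb and Jund are lower in both FBN-ARO-KO+GCI libraries, Fosb and Fosl2 are slightly higher, and Fosl1 is near 0 except in FLOX+GCI replicate 2.

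Of the 7 members, 6 passed the filter on low counts and were tested, and 0 of the 6 passed an adjusted p of 0.05 in edgeR's quasi-likelihood test, as did 0.0138% of all genes (2 of 14527). With the unadjusted p held under 0.05, 4 of the 6 (Fos, Jun, Junb and Jund) passed, all lower in FBN-ARO-KO+GCI, against 16.5% of all genes in either direction and 7.82% lower. The genotype groups did not overlap in any of the 6, 4 lower and 2 higher, but they did not overlap in 51.8% of all genes either, 25.8% lower. An exact permutation test of 2 against 2 libraries cannot give a two-sided p below 0.333. Of the other tools run, DESeq2 put 1 member (Junb, adjusted p = 0.000452, with no adjusted p given for Fos, Fosb and Fosl1) and the likelihood ratio test of edgeR 2 members (Junb, 0.000406, and Fos, 0.0234) under an adjusted p of 0.05, against 4.60% of the genes with an adjusted p in DESeq2 and 2.02% in the likelihood ratio test. Leaving out FLOX+GCI replicate 2 put 3 members under it (Fos, Junb and Jund, against 0.854% of all genes) and leaving out FLOX+GCI replicate 1 put 0 of these 6 under it, against 1.30% of all genes. Fosl1 then passed the filter and the limit (adjusted p = 0.00530) through the single remaining FLOX+GCI library, where it had 41 counts, and this is no support for a difference. Leaving out either FBN-ARO-KO+GCI library put 0 members and 0 genes under it.

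The genotype difference followed the GC content of transcripts across the transcriptome, and 4 of the 6 tested AP-1 genes lie in the GC-rich part of that range. Across 13870 genes, Spearman's rho between log2 fold change and GC content was -0.56, a description over genes, which are not independent replicates. The ratio of the FBN-ARO-KO+GCI libraries to each other (replicate 2 over replicate 1) had a rho of -0.48 with GC content, and that of the FLOX+GCI libraries 0.10. Junb and Jund, at 62.6% and 62.7% GC, lie in the highest GC decile, where the median log2 fold change was -0.22 and 91.6% of genes were lower in FBN-ARO-KO+GCI. Fosb (56.3%) lies in decile 9 with a median of -0.14, Jun (55.5%) in decile 8 with a median of -0.10, and Fos and Fosl2 (51.9% each) in decile 6 with a median of -0.01.

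Set against these medians, Fos stood 0.70 and Junb 0.54 log2 units below the genes of their decile, Jund 0.26 and Jun 0.14 below, and Fosb 0.34 and Fosl2 0.20 above. When the trend of each library over GC content and length was removed by an offset in edgeR, the log2 fold change was -0.64 for Fos (SE 0.16, edgeR unadjusted p = 0.00533) and -0.44 for Junb (SE 0.11, edgeR unadjusted p = 0.00494). Jun moved to -0.11 (edgeR unadjusted p = 0.112) and Jund to -0.18 (edgeR unadjusted p = 0.243), so neither passed an unadjusted p of 0.05 any longer. Fosb moved to 0.34 (SE 0.13, edgeR unadjusted p = 0.0368) and Fosl2 stayed at 0.19 (edgeR unadjusted p = 0.0731). With this correction 3 of the 6 members passed an unadjusted p of 0.05, 2 lower and 1 higher, and 0 an adjusted one, and 11.4% of all genes passed unadjusted. Whether the GC trend is a property of the libraries or of the tissue was not tested.

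**Figure D2:**
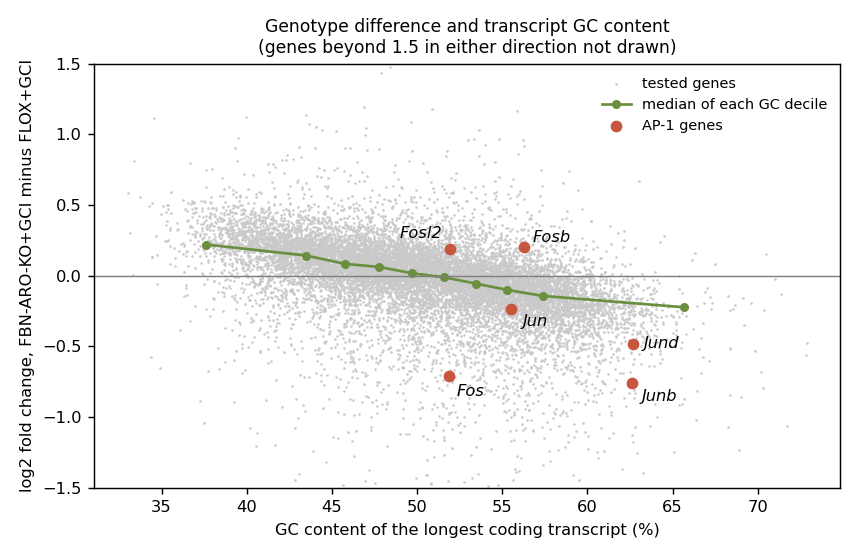
Log2 fold change of each tested gene (y axis, FBN-ARO-KO+GCI minus FLOX+GCI) against the GC content of its longest coding transcript (x axis, percent), with the median of each GC decile as a line and the 6 tested AP-1 genes labelled. The decile medians run from 0.22 at the lowest GC to -0.22 at the highest, with Fos and Junb far below the line, Jun and Jund closer to it, and Fosb and Fosl2 above it.

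**Figure D3:**
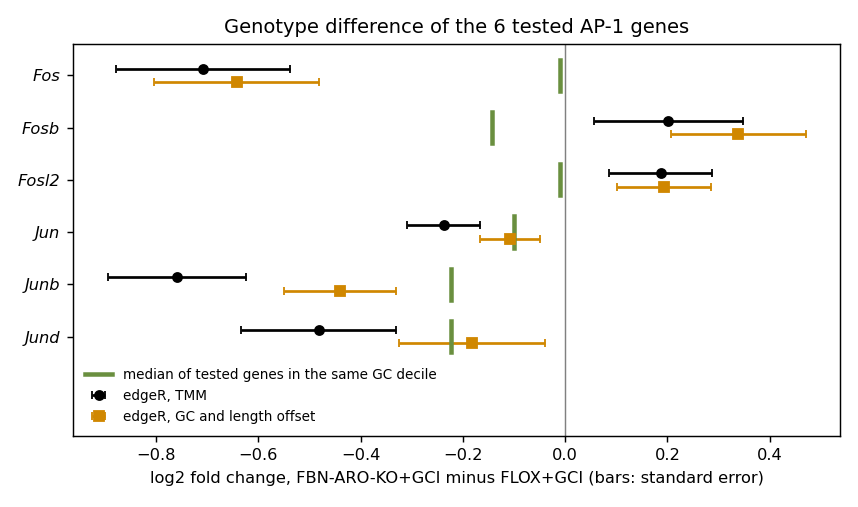
Log2 fold change with SE (x axis) of the 6 tested AP-1 genes (y axis) with TMM scaling (black circles) and with the trend over GC content and length removed (orange squares), beside the median of all tested genes in the same GC decile (green bars). Fos moves from -0.71 to -0.64, Junb from -0.76 to -0.44, Jund from -0.48 to -0.18 and Jun from -0.24 to -0.11.

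Levels of different genes were compared as CPM per kilobase of merged exons. On this scale Jun was the most abundant member in every library, at 34.5 and 33.8 in FLOX+GCI and at 29.5 and 28.4 in FBN-ARO-KO+GCI. Junb followed at 31.9 and 24.7 in FLOX+GCI and at 17.6 and 15.8 in FBN-ARO-KO+GCI. In FLOX+GCI the order went on with Jund (20.6 and 14.8), Fosl2 (11.8 and 14.2), Fos (12.1 and 9.12), Fosb (2.57 and 2.28) and Fosl1 (0.0701 and 0.974), and only the neighbours Fosl2 and Fos overlapped. In FBN-ARO-KO+GCI, Fosl2 (14.4 and 15.1) lay above Jund (12.5 and 12.9), Fos was at 7.18 and 5.82, Fosb at 2.93 and 2.66, and no neighbours overlapped. The longest annotated transcript in place of merged exons gave the same order in both genotypes.

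The sum over the 7 genes was 113.6 and 99.8 CPM per kilobase in FLOX+GCI, against 84.2 and 80.7 in FBN-ARO-KO+GCI. The Jun family accounted for most of that gap, with 87.0 and 73.3 in FLOX+GCI, against 59.6 and 57.1 in FBN-ARO-KO+GCI, whereas the Fos family held 26.6 and 26.5 against 24.6 and 23.6. The Jun family share of the sum was 76.6% and 73.4% in FLOX+GCI, against 70.8% and 70.7% in FBN-ARO-KO+GCI. These levels and shares were not corrected for GC content. With the GC and length offset, the log2 fold changes were nearer 0, at -0.11 for Jun, -0.18 for Jund and -0.44 for Junb. How much of the gap in the Jun family goes with the GC trend was not tested. Within the Fos family sum, the Fosl2 level was higher and the Fos level lower in FBN-ARO-KO+GCI, so that Fosl2 made up 17.1% and 18.7% of the whole AP-1 sum there, against 10.4% and 14.2% in FLOX+GCI.

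**Figure D4:**
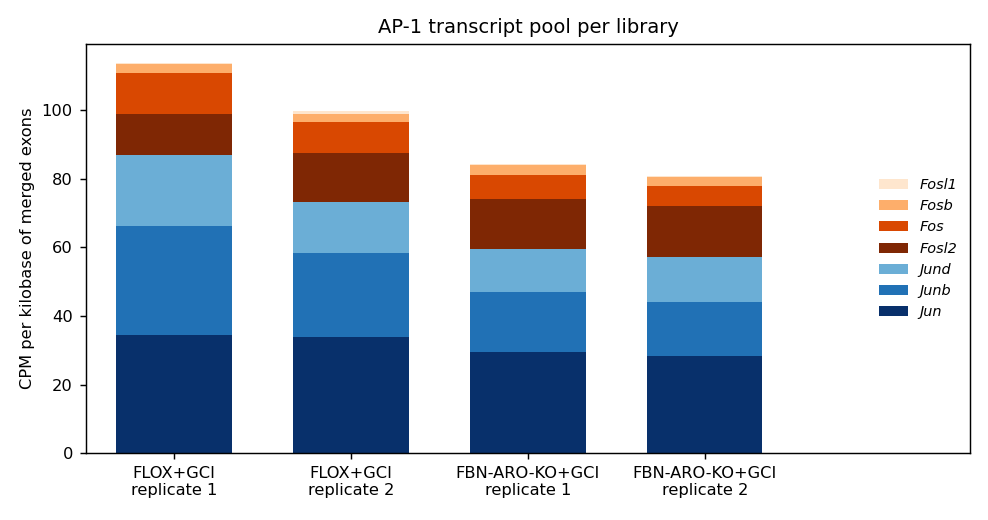
CPM per kilobase of merged exons (y axis) of the 7 AP-1 genes stacked in each library (x axis), Jun family in blue and Fos family in orange to brown. The stacks reach 113.6 and 99.8 in FLOX+GCI, against 84.2 and 80.7 in FBN-ARO-KO+GCI, with the difference mostly in the blue Jun family segments. The levels are not corrected for GC content.

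Ratios of raw counts between members within a library do not depend on the scaling between libraries, but they were not corrected for the GC trend. Of the 15 pairs among the 6 tested members, 12 did not overlap between genotypes, against 48.1% of all pairs of tested genes, and the pairs named here were chosen after their values were seen. Fos outnumbered Fosb 2.96-fold and 2.51-fold in FLOX+GCI, against 1.54-fold and 1.37-fold in FBN-ARO-KO+GCI, a lower ratio in both FBN-ARO-KO+GCI libraries. The exact 95% binomial interval was 2.13 to 2.96 in the lower FLOX+GCI library and 1.35 to 1.76 in the higher FBN-ARO-KO+GCI library. Fosl2 counts were 1.20 and 1.86 times those of Junb in FLOX+GCI, against 2.65 and 3.10 times in FBN-ARO-KO+GCI. The GC content of these genes differs, at 51.9% for Fosl2 and 62.6% for Junb. The GC and length offset moved the log2 fold change of Junb from -0.76 to -0.44, whereas Fosl2 stayed at 0.19. The ratio of Fos to Junb stayed close to constant, at 0.496 and 0.481 in FLOX+GCI, against 0.531 and 0.480 in the FBN-ARO-KO+GCI libraries. Each interval was computed within a single library, so it covers counting error only and not the spread between libraries. The reads carry no molecular identifiers, so repeated reads of a molecule are counted too.

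The profiles of genes over the 4 libraries were compared by the Euclidean distance between centred log2 CPM values, which for Fos and Junb restates their near-constant ratio. Their distance was 0.116, against 0.332 for Junb and Jund and 1.05 for Fos and Fosl2. Among 12742 genes with a mean of at least 50 counts, those nearest to Fos were Lyz2, the lysozyme of macrophages and microglia (0.0811), Fam125a (0.107) and Rasa4 (0.115), and those nearest to Junb were Dnase2a, a lysosomal nuclease (0.0780), Tgfb1 (0.0871) and C1qtnf4 (0.0873). Lyz2 stood at 10.1 and 7.91 CPM in FLOX+GCI and at 6.46 and 5.05 CPM in FBN-ARO-KO+GCI, the same order of libraries as Fos. With 4 libraries, a short distance says only that the library values run in parallel.

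The other bZIP proteins that pair with Fos or Jun passed about as often as other genes. Of 14 partners, 12 were tested, and 1 was lower and 1 higher at an unadjusted p under 0.05 (16.7%, against 16.5% of all genes). The number that passed an adjusted p was 0, and the median log2 fold change was -0.04, against -0.01 over all genes. Fewer partners passed an unadjusted p without FBN-ARO-KO+GCI replicate 2, as did fewer of all genes. Batf3, a partner of Jun proteins in immune cells, stood at 0.878 and 0.649 CPM in FLOX+GCI and at 0.392 and 0.239 CPM in FBN-ARO-KO+GCI (log2 fold change -1.25, adjusted p = 0.266). Atf2, a partner of Jun that JNK and p38 kinases phosphorylate, had a log2 fold change of 0.26 (adjusted p = 0.294), and Atf4, of the integrated stress response, -0.14 (adjusted p = 0.372). Atf3, an injury-induced partner, had 34 and 86 counts in FLOX+GCI, against 51 and 27 in FBN-ARO-KO+GCI, which overlap (log2 fold change -0.97, adjusted p = 0.352).

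The kinases and factors that act upstream of AP-1 passed no more often than other genes. Of 35 (MAP kinases and their activators, RSK and MSK kinases, and the CREB, SRF, ELK and MEF2 factors), 34 were tested, 2 were lower and 3 higher at an unadjusted p under 0.05, which is 14.7% against the 16.5% of all genes, and 0 passed an adjusted p. The number past an unadjusted p was 9 without FBN-ARO-KO+GCI replicate 1 (against 18.8% of all genes) and 3 without FBN-ARO-KO+GCI replicate 2 (against 5.64%). Their median log2 fold change was 0.08, and their median GC content 49.7%. Rps6ka5, which encodes MSK1, a kinase that acts on CREB and chromatin at Fos and Jun genes, stood at 21.9 and 19.0 CPM in FLOX+GCI and at 27.0 and 27.6 CPM in FBN-ARO-KO+GCI (log2 fold change 0.42, adjusted p = 0.238). Creb1, the factor that binds cAMP response elements, stood at 54.0 and 48.3 CPM against 60.1 and 72.3 CPM (0.37, adjusted p = 0.245), and Mef2a, an activity-regulated factor, had a log2 fold change of 0.24 (adjusted p = 0.248). Mapk12, a p38 kinase, had 91 and 184 counts in FLOX+GCI, against 81 and 80 in FBN-ARO-KO+GCI (log2 fold change -1.10, adjusted p = 0.245), with FLOX+GCI replicate 2 apart from the other libraries.

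Genes known as AP-1 targets were lower at the median, and the size of this median depended on FLOX+GCI replicate 2. Of 34 targets, 28 were tested, of which 8 were lower and 1 higher at an unadjusted p under 0.05 (32.1%, against 16.5% of all genes in either direction), 0 passed an adjusted p, and the median log2 fold change was -0.28. The median was -0.047 without FLOX+GCI replicate 2 and -0.51 without FLOX+GCI replicate 1. The latter fit held 30 targets, and those added passed the filter only through the remaining FLOX+GCI library, where they were high. Its median is thus no support for a difference. With the GC and length offset it was -0.17, with 6 targets past an edgeR unadjusted p of 0.05, against 11.4% of all genes. The number past that limit was 9 without FLOX+GCI replicate 2 (against 12.9% of all genes), 19 without FLOX+GCI replicate 1 (15.9%) and 4 without FBN-ARO-KO+GCI replicate 2 (5.64%). Hmox1, which encodes heme oxygenase, stood at 7.86 and 14.6 CPM against 5.13 and 5.84 CPM (-1.03, adjusted p = 0.238), and Icam1, an adhesion molecule, at 4.55 and 5.88 CPM against 3.38 and 2.18 CPM (-0.90, adjusted p = 0.245). In both of these genes FLOX+GCI replicate 2 was the highest library, although replicate 1 was the higher FLOX+GCI library for Fos, Junb and Jund.

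Vim, an intermediate filament that reactive astrocytes overexpress, stood at 66.5 and 72.5 CPM in FLOX+GCI and at 54.8 and 44.1 CPM in FBN-ARO-KO+GCI (-0.49, adjusted p = 0.238). Gfap, the other such filament in the list, was chosen after its values were seen. It stood at 396 and 900 CPM against 502 and 560 CPM, which overlap (-0.29, edgeR adjusted p = 0.655). The cells that express Vim were not told apart. Tgfb1, a cytokine, stood at 4.99 and 3.81 CPM against 2.90 and 2.59 CPM (-0.68, adjusted p = 0.248), with FLOX+GCI replicate 1 the highest library. Gria2, which encodes the AMPA receptor subunit GluA2, stood at 791 and 771 CPM against 941 and 1153 CPM (0.42, adjusted p = 0.238), and its GC content was 38.1%, in the part of the range where most genes were higher. Timp1, a protease inhibitor below the filter on low counts and chosen after its values were seen, had 5 and 203 counts in FLOX+GCI, against 5 and 4 in FBN-ARO-KO+GCI, the library pattern of Fosl1. The other 5 targets below the filter were Ccl2, Il6, Mmp3, Mmp12 and Mmp13.

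The split between the FLOX+GCI libraries thus ran differently through the family and its targets. FLOX+GCI replicate 1 was above replicate 2 for 5 of the 6 tested members and for 13 of 23 other immediate early genes. Replicate 2 was above replicate 1 for 21 of the 28 tested targets (75%, against 50.4% of all genes), and over 2-fold above it for 7 of them (25%, against 1.35% of all genes). The highest of all 4 libraries was FLOX+GCI replicate 2 for 19 of the 28 targets, against 29.0% of all genes.

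Most of the other immediate early genes were lower at the point estimate. All 23 were tested, and 19 had a log2 fold change below 0 and 4 above it, against 7458 of 14527 genes below 0. Their median GC content was 54.0%, in GC decile 7, where 65.5% of genes were lower. The groups did not overlap in 13 of the 23, against 51.8% of all genes. Egr1, chosen after its values were seen, had a log2 fold change of -0.02 and overlapped. Of the 23, 7 were lower and 4 higher at an unadjusted p under 0.05 (47.8%, against 16.5% of all genes), 0 passed an adjusted p, and the median log2 fold change was -0.28. The median was -0.18 without FLOX+GCI replicate 1 and -0.16 without FBN-ARO-KO+GCI replicate 2. The number past an unadjusted p of 0.05 was not stable to leaving out a library. It was smallest without FBN-ARO-KO+GCI replicate 2, as was the share of all genes. With the GC and length offset it was -0.18, with 8 past an edgeR unadjusted p of 0.05, against 11.4% of all genes. Npas4, a neuron-specific activity-dependent factor, stood at 17.8 and 10.6 CPM in FLOX+GCI and at 6.88 and 7.10 CPM in FBN-ARO-KO+GCI (-1.02, SE 0.24, adjusted p = 0.238), with the same high library as Fos and Junb. Zfp36, which destabilizes the mRNAs of cytokines and immediate early genes, stood at 6.19 and 9.09 CPM against 4.83 and 4.03 CPM (-0.78, adjusted p = 0.244). Homer1, a postsynaptic scaffold with an activity-induced short form, stood at 91.1 and 91.9 CPM against 118 and 145 CPM (0.52, adjusted p = 0.238), and Nr4a2, an orphan nuclear receptor, had a log2 fold change of 0.33 (adjusted p = 0.238). The GC content was 36.9% for Homer1 and 47.9% for Nr4a2, against 56.7% for Npas4 and 54.0% for Zfp36.

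**Figure D5:**
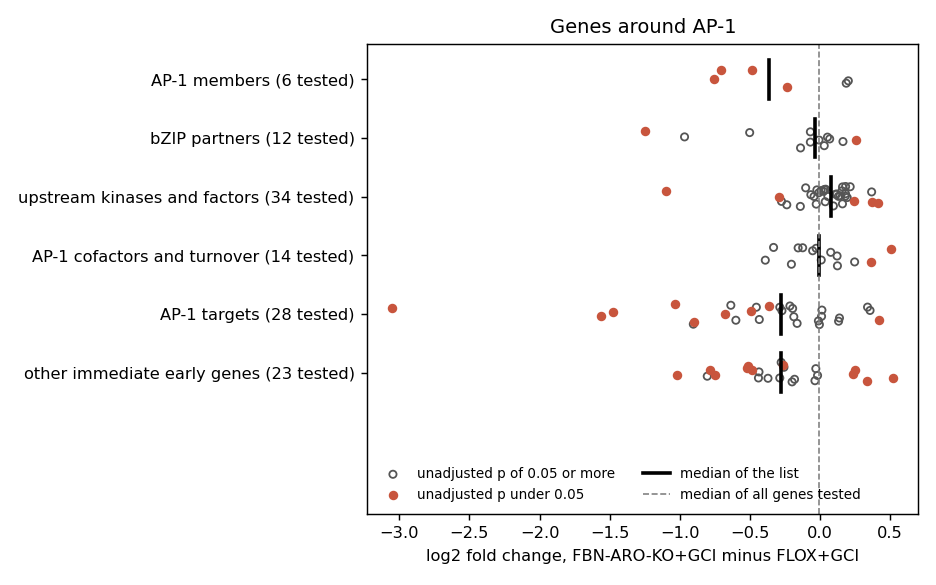
Log2 fold change (x axis, FBN-ARO-KO+GCI minus FLOX+GCI) of each tested gene of the AP-1 family and of 5 lists around it (y axis), filled where the unadjusted p was under 0.05, with list medians as black bars and the median of all genes as a dashed line. The medians are -0.36 for the members, -0.04 for bZIP partners, 0.08 for upstream kinases and factors, -0.01 for cofactors and turnover, and -0.28 both for targets and for other immediate early genes.

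Neuronal, astrocyte, microglia, endothelial and oligodendrocyte markers were all above 0 in every library, and 1 of 7 lists had every marker lower in FBN-ARO-KO+GCI. The 11 pyramidal and granule cell markers summed to between 7710 and 8010 CPM over the 4 libraries. Of these markers, 5 were lower and 6 higher in FBN-ARO-KO+GCI, and 8 did not overlap, against 51.8% of all genes. Camk2a and Slc17a7 made up most of this sum, which does not show log2 fold changes such as 0.42 for Dsp and -0.16 for Wfs1. The 8 microglia markers summed to 448 and 423 CPM in FLOX+GCI, against 420.2 and 473 CPM in FBN-ARO-KO+GCI. The 10 endothelial and mural markers summed to 385 and 252 CPM in FLOX+GCI and to 305 and 203 CPM in FBN-ARO-KO+GCI. All 10 were lower in the FBN-ARO-KO+GCI mean (2 without overlap, none at 0 in any library). Over all genes, 7458 of 14527 were lower and 51.8% did not overlap. All 10 endothelial and mural markers were also higher in replicate 1 of both genotypes, as were Fos and Junb beyond counting error and Fosb and Jun within it. The part of these markers in the AP-1 differences was not tested. Astrocyte markers summed to 5908 and 5996 CPM against 6121 and 6767 CPM, and oligodendrocyte markers to 4055 and 4580 CPM against 4617 and 4736 CPM. Both sums were higher without overlap in FBN-ARO-KO+GCI. However, only 2 of the 8 astrocyte and 4 of the 8 oligodendrocyte markers did not overlap, against 51.8% of all genes, and 2 and 3 were lower. Choroid plexus markers summed to 65.4 and 50.9 CPM against 44.1 and 49.8 CPM, lower without overlap, although only 3 of the 7 were lower. Ttr and Kl made up most of this sum. Ttr was lower without overlap, at 26.5 and 21.9 CPM against 8.93 and 15.6 CPM, whereas Kl overlapped. Blood cell markers were low at 5.04 to 7.82 CPM and overlapped, but Hba-a1 and Hbb-b1 were listed at 0 in every library while the erythroid gene Alas2 had 61 to 104 counts, so this sum does not measure how much blood the tissue held.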

How the data were processed

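The study extracted total RNA from hippocampi of ovariectomized FLOX and FBN-ARO-KO mice 24 h after GCI and sequenced 50 nt single-end reads. The authors aligned reads to mm9 with TopHat2 (version 2.0.8b per the submitters' processing notes), counted them per gene symbol with HTSeq, and deposited raw counts with no normalization. The annotation release and strand setting are not given in the sources used here. The 5 counters of unassigned reads (43.4% to 45.5% of each file's total) were left out.

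Counts were compared with edgeR 4.0.16 (limma 3.58.1, R 4.3.3), using TMM, filterByExpr with a minimum count of 10, the quasi-likelihood test, and Benjamini-Hochberg adjustment at 0.05. The SE was taken from the F statistic. DESeq2 1.42.0 was an alternative. Other alternatives were other size factors, filters, the likelihood ratio test, a replicate block, a GC and length offset (natural splines, 5 degrees of freedom), and each library left out. On simulated counts with 200 genes changed 2-fold, the quasi-likelihood test (14424 genes tested) found 169 and called 16 others. DESeq2 found 168 and called 19 others. More false calls came from the likelihood ratio test (181 found, 44 others) and the replicate block (184 found, 52 others). When a GC trend was added (14415 genes tested), the quasi-likelihood test called 351 others, and with the offset 22. Among the tested members, the largest differences between genotypes were 1.69-fold (Junb) and 1.64-fold (Fos), below 2-fold. How often each test finds differences of that size, or calls other genes, in the measured libraries was not tested.

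GC content, lengths and positions came from GENCODE M1 (NCBIM37, the assembly of mm9), where 21437 of the 22609 symbols had a single locus and 20066 a coding sequence. Profiles used log2 CPM with a prior count of 2. Promoters came from the RefSeq table of GRCm38.p6 and were not converted. The members and gene lists were chosen with earlier results of these data known. Named genes are the 7 members, the 4 genes of each list (6 for targets) with the smallest unadjusted p, and the 3 nearest profiles to Fos and to Junb. Of these, 1 target and 1 cofactor are not reported here. Libraries of a genotype differed beyond sampling noise (chi-square per degree of freedom 10.5 in FLOX+GCI, 12.4 in FBN-ARO-KO+GCI), so they are not copies of 1 library, although they may come from the same RNA.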

Additional observations from a re-analysis of the deposited data

How the results depend on the processing

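The 7 members kept the direction of their log2 fold change under each alternative that could be fitted to them. With an adjusted p of 0.05 as the limit, 1 member passed in DESeq2 (Junb), 2 in edgeR's likelihood ratio test, and between 0 and 3 when 1 library was left out. Other size factors, library totals, other filters and the GC and length offset each gave 0. Over all genes, 2 passed in the quasi-likelihood test, 5 with every gene of at least 1 count, 287 in DESeq2 (of 6240 with an adjusted p), 294 in the likelihood ratio test, and 193, 127, 0 and 0 without FLOX+GCI replicates 1 and 2 and FBN-ARO-KO+GCI replicates 1 and 2. Where a genotype keeps 1 library, it is assumed to vary like the other group. With 1 library left out, the list medians ranged from -0.15 to 0.059 for bZIP partners, 0.064 to 0.10 for upstream genes, -0.10 to 0.063 for cofactors, -0.51 to -0.047 for targets, and -0.40 to -0.16 for other immediate early genes. With the replicate block, 2 members passed (Junb, adjusted p = 0.00487, and Fos, 0.0130), 184 of all genes passed, and with the GC and length offset added 0 members and 3 genes. Same-numbered libraries share only a number, with a correlation of deviations of 0.13. Fosl1 was fitted only with every gene of at least 1 count, in DESeq2, and without FLOX+GCI replicate 1 or an FBN-ARO-KO+GCI library, where its log2 fold change depends on 1 to 3 counts. Counts of list genes past an unadjusted p of 0.05 stayed within 1.5 times the reported count in 29 cases, rose above it in 5 and dropped below it in 11. The cause was not tested. Fosl1 had 3 or fewer counts in 3 of 4 libraries.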

Other observations

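Cofactors of AP-1 and genes that control its turnover were plotted with the other lists and are described here. All 14 were tested, and 2 were higher and 0 lower at an unadjusted p under 0.05 (14.3%, against 16.5% of all genes). The number that passed an adjusted p in edgeR's quasi-likelihood test was 0, and the median log2 fold change was -0.01. More passed an unadjusted p when replicate 1 of either genotype was left out, a fit with a single library in that genotype. Itch, the ubiquitin ligase of Jun and Junb, stood at 82.4 and 83.0 CPM in FLOX+GCI and at 103.6 and 109.3 CPM in FBN-ARO-KO+GCI (log2 fold change 0.36, SE 0.07, adjusted p = 0.238). The replicates of each genotype lay close together and the groups did not overlap. Sirt1, a deacetylase that acts on Jun, stood at 11.7 and 12.6 CPM against 16.8 and 17.7 CPM, a log2 fold change of 0.51 with SE 0.12 (adjusted p = 0.238). Rfwd2, which encodes the ubiquitin ligase COP1 of Jun, had a log2 fold change of 0.25 (adjusted p = 0.309). Itch, Sirt1 and Rfwd2 have a GC content of 42.1%, 44.0% and 42.8%, in the part of the range where most genes were higher in FBN-ARO-KO+GCI.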
